A study of Mus musculus with 9 samples.

Results

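The 9 genes described here specify cell surface markers by which fibroblasts, cells on the way to pluripotency and pluripotent cells are told apart: Thy1, Cd34, Cd44, Vcam1, Icam1, Pecam1, Cd24a, Alpl and Fut4. They were chosen by name, as array rows that carry only that gene's symbol, and each of the 9 had 1 such row among the 19937 genes measured. The series followed mouse fibroblasts towards induced pluripotent stem (iPS) cells on 9 Affymetrix whole-transcript arrays, 3 per group. All 3 groups share the strain OG2-GFP/Rosa26-M2rtTA, which combines an Oct4-promoter GFP reporter with a doxycycline-responsive transactivator, and all descend from a secondary system in which doxycycline switches on the factors abbreviated TSKM (Tet1, Sox2, Klf4, c-Myc). The fibroblast group holds passage 4 cells derived from mice made with TSKM iPS cells. The group labelled TSKM-3D (intermediate stage) holds such passage 4 cells after 3 days of doxycycline, at which point the culture was also moved into embryonic stem cell medium with LIF. The iPS group is the induced line itself at passages 10 to 15, grown on mitomycin C-treated embryonic fibroblast feeders that were depleted by plating before RNA was taken. The groups thus differ in passage, medium or feeders as well as in stage, and these cannot be told apart here. Nothing in the labels ties the 3 arrays of each group to different cultures or animals, so p-values reflect the array-to-array spread alone, and that spread could be technical.

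Fibroblasts carry Thy-1, CD44 and VCAM-1, proteins of cell-matrix and cell-cell adhesion, whereas mouse pluripotent cells carry tissue-nonspecific alkaline phosphatase, PECAM-1 and the carbohydrate epitope SSEA-1, a fucosylated sugar chain rather than a protein. In mouse reprogramming experiments, loss of Thy-1 is an early event and gain of SSEA-1 follows. Sorting by CD44 and ICAM-1 has been used to order later intermediates. The arrays measure RNA from whole cultures, so fewer cells of a type and less RNA per cell cannot be told apart, and no surface protein was measured.

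The labels were checked first. Pluripotent cell markers were higher in iPS cells than on the arrays labelled TSKM-3D for 11 of 11 genes, with Nanog at 12.38 against 5.65 on the log2 scale, and their summed linear level was 29594 to 30536 on iPS arrays, 711 to 813 on arrays labelled TSKM-3D and 506 to 510 on fibroblast arrays. Of 9 fibroblast markers, 4 were lower on the arrays labelled TSKM-3D than in fibroblasts and 7 were lower in iPS cells than in fibroblasts, but Fn1 still read 12.00 and Col1a1 11.47 in iPS cells. Among the introduced factors, Sox2 and Myc were higher on the arrays labelled TSKM-3D than in fibroblasts (log2 differences 1.39 and 1.60) and Klf4 differed by 0.04. Of the 11 pluripotent cell markers, 2 were higher in that comparison, Pou5f1 (1.85) and Sox2, and 0 lower. Tet1 was lower by 1.13, which goes against the label if its row reads the introduced copy. Whether it does was not examined, so the name "labelled TSKM-3D" is kept. One fibroblast array, the third, carries a cell type entry for induced cells although its title, source and passage say fibroblasts. It was kept with the fibroblasts. Across all array rows, the 3 arrays kept as fibroblasts correlated with each other at r = 0.9952 to 0.9965. With the arrays labelled TSKM-3D they correlated at 0.9526 to 0.9586. Array medians were 6.01 to 6.23. A set of 14 bright low-numbered rows without a gene name, picked after the data were seen, had a median level of 8.67 on fibroblast arrays, 10.67 on arrays labelled TSKM-3D and 10.87 on iPS arrays, so fibroblast arrays stood apart in these rows, and their part in the results below was not tested.

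The 9 genes fell into 4 courses. Thy1 and Cd34 fell in both steps. Cd44, Vcam1 and Cd24a were called in the second step alone, between TSKM-3D and iPS, and fell there. Icam1, Pecam1 and Alpl rose there and were likewise not called in the first step. Fut4 was called in neither. A call required an adjusted p under 0.05 in limma (Benjamini-Hochberg, over all genes) together with a difference of at least 2-fold, which is 1 on the log2 scale. On the arrays labelled TSKM-3D against fibroblasts, 2 of the 9 genes were lower and 0 higher, where 10.8% of all genes were called, 7.58% lower and 3.25% higher. Below an unadjusted p of 0.05 limma put 6 of the 9 in that step and 50.9% of all genes. All first-step calls, of the 9 genes and of any other gene named below, depend on the place of the third fibroblast array: with it among those labelled TSKM-3D, as its cell type entry would have it, limma called 0 genes, and 5359 had an unadjusted p under 0.05. For iPS cells against the arrays labelled TSKM-3D, 3 were higher and 5 lower, where 15.1% of all genes were called, 6.48% higher and 8.57% lower. For iPS cells against fibroblasts the counts were again 3 higher and 5 lower, where 21.5% of all genes were called, 7.63% higher and 13.8% lower. These shares over all genes are also the ones to set beside the list counts below. The median log2 difference of the 9 genes was 0.07 in the first step against 0.05 over all genes, -1.56 in the second against -0.01, and -1.33 over the whole course against 0.05. Lower in both steps was found for 1.13% of all genes, lower in the second step alone for 5.98%, higher in the second step alone for 5.32%, and no call in either step for 77.9%.

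**Figure D1:**
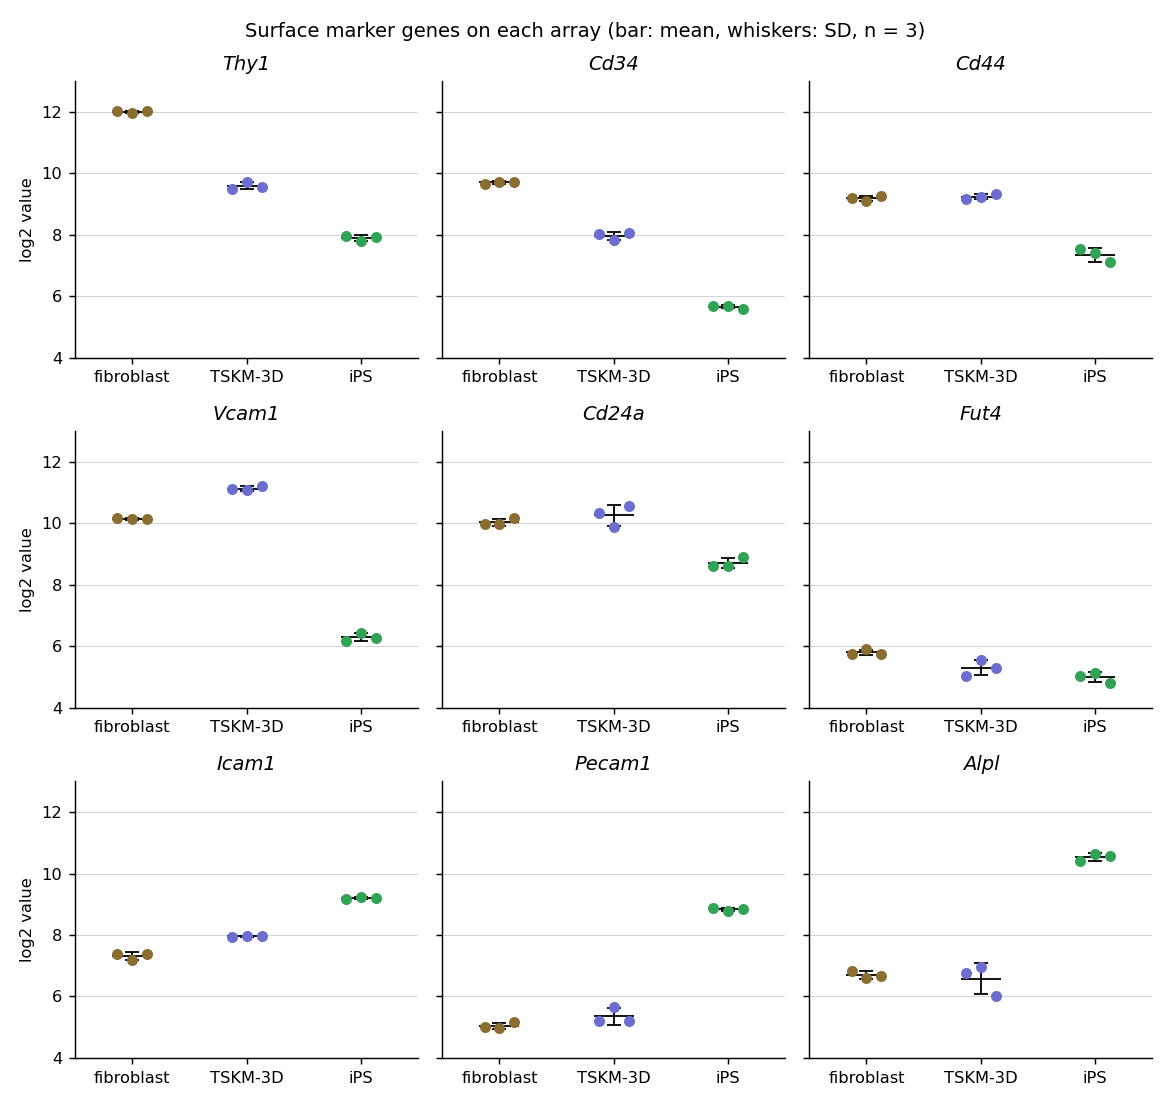
Log2 value of each of the 9 genes on every array, by group, with the 3 arrays as points, the group mean as a bar and the SD as whiskers. Thy1 and Cd34 step down at each stage, Vcam1 stands highest on the arrays labelled TSKM-3D, and Pecam1 and Alpl are high only on iPS arrays; levels of different genes are not comparable, since each row has its own probes.

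Thy1 encodes a small glycosylphosphatidylinositol (GPI)-anchored glycoprotein of fibroblasts, neurons and thymocytes. It read 12.03, 11.96 and 12.01 on the fibroblast arrays, 9.50, 9.71 and 9.56 on the arrays labelled TSKM-3D and 7.97, 7.79 and 7.91 on the iPS arrays (log2 values). The 3 groups did not overlap and stood in this order. Against fibroblasts, Thy1 was 5.32-fold lower on the arrays labelled TSKM-3D (-2.41 ± 0.08 on the log2 scale, SE, with n = 3 in each group; adjusted p = 1.96e-09 in limma with Benjamini-Hochberg adjustment). It was a further 3.25-fold lower in iPS cells (-1.70 ± 0.08; limma adjusted p = 1.11e-08), and the whole fall of 17.3-fold ranked 43rd among the falls of all 19937 genes. The arrays labelled TSKM-3D had covered 58.6% ± 2.67 (SD, n = 3) of the distance between the fibroblast and iPS means on the log2 scale. This SD, like that of Cd34 below, is over the arrays labelled TSKM-3D and takes both means as fixed. The second fall was smaller than the first by 0.71, which passed the adjusted p but not the 2-fold requirement, and this direction turned with the third fibroblast array placed among those labelled TSKM-3D (-0.51). In that placement the first-step differences of Thy1 and Cd34 were both without a call (-1.80 and -1.29; limma adjusted p = 0.165 for each). Loxl3, Mmp23 and S1pr3 had the most similar courses over the 9 arrays, with root mean square differences of 0.17 to 0.20 on the log2 scale after each gene was centred on its own mean. Loxl3 encodes a lysyl oxidase-like enzyme and S1pr3 a sphingosine 1-phosphate receptor.

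Cd34 encodes a sialomucin best known from blood stem cells and endothelium and also present on fibroblasts of connective tissue. Its values were 9.65, 9.73 and 9.73 on fibroblast arrays, 8.03, 7.82 and 8.04 on arrays labelled TSKM-3D and 5.69, 5.69 and 5.59 on iPS arrays. Each group lay below the one before without overlap, and the iPS values were under the median of their arrays. The falls were 3.34-fold in the first step and 4.95-fold in the second (log2 differences -1.74 ± 0.08 and -2.31 ± 0.08; limma adjusted p = 1.8e-08 and 9.16e-10). The second fall was the larger by 0.57, again short of 2-fold, and by 1.46 with the third fibroblast array placed among those labelled TSKM-3D (limma adjusted p = 0.231). Cd34 thus ended 16.5-fold below the fibroblast level, with the arrays labelled TSKM-3D at 43.0% ± 3.04 of the way (SD, n = 3). Its nearest courses were those of Sema3a, Steap2 and Layn (root mean square differences 0.12 to 0.13), the last of which encodes layilin, a hyaluronan receptor. The related sialomucin gene Podxl, whose product podocalyxin is also found on pluripotent cells, went the other way and was higher on the arrays labelled TSKM-3D than in fibroblasts (6.60 against 5.51; 1.10 ± 0.12; limma adjusted p = 1.48e-05). It was the only gene called among 7 sialomucins in that comparison.

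Because Cd34 is also known from blood stem cells and endothelium, haematopoietic markers were read on the same arrays, with macrophage markers beside them. Endothelial markers are given with Pecam1 below. Of 12 haematopoietic markers, 0 were higher and 2 lower on the arrays labelled TSKM-3D than in fibroblasts, Cd53 at 5.31 against 8.22 and Laptm5 at 6.13 against 8.16, and the summed linear level of the list was 1418 to 1550 on those arrays and 2123 to 2246 on fibroblast arrays. On iPS arrays the sum was 2227 to 2616, with Laptm5 at 10.62. Against fibroblasts, Laptm5 was the 1 gene of this list called higher in iPS cells, and 2 were lower. These were Runx1 at 6.96 against 9.91 and Cd53 at 5.33 against 8.22. Of 12 macrophage markers, 3 were lower on the arrays labelled TSKM-3D than in fibroblasts, led by Lyz2 at 5.17 against 9.18. The sums were 660 to 712 against 1479 to 1594, and the iPS arrays stood at 1317 to 1319. In iPS cells only Cd68 was called higher than on the arrays labelled TSKM-3D, at 9.59 against 7.67. Against fibroblasts 4 were lower in iPS cells, with Lyz2 at 6.04, and 11 of the 12 had iPS means under the array median. None of these markers was at 0 on any array, and their part in the fall of Cd34 was not tested.

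The RefSeq promoter table (GRCm38.p6) held windows for 5 of the 9 genes. Those of Icam1, Alpl and Cd34 follow, with 2 for Alpl, which has a pair of annotated starts, to set the promoters of the rising genes Icam1 and Alpl beside that of the falling gene Cd34. Each is the 250 bases before the start, on the gene's strand, and capitals mark matches to the motifs searched.
Icam1 (chr9:21015690-21015939, plus strand): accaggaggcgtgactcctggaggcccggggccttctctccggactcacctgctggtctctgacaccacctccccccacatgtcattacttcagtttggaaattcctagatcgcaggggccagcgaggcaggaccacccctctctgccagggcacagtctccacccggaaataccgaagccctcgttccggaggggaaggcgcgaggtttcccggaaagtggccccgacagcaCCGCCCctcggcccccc
Alpl, upstream start (chr4:137796385-137796634, minus strand): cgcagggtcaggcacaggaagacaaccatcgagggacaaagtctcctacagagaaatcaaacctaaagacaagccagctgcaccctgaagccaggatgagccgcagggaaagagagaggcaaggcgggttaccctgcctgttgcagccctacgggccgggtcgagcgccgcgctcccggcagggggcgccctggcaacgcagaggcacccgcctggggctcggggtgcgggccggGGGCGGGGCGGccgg
Alpl, downstream start (chr4:137766476-137766725, minus strand): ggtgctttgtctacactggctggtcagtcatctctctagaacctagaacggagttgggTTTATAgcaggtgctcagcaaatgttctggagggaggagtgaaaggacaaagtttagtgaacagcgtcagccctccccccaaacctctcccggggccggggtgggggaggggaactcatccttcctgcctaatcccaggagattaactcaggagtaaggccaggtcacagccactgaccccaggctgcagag
Cd34 (chr1:194938571-194938820, plus strand): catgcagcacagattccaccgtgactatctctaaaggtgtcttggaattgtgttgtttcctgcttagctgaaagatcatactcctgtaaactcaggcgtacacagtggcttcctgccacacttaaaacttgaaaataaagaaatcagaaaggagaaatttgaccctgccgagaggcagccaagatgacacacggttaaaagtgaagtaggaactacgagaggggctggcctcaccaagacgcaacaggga
Motifs were searched on both strands: TATAAA for the TATA box, GGGCGG for the GC box, CACGTG for the E-box that MYC proteins bind, and CATTGT for SOX-type factors. The others were TGANTCA for AP-1, CCAAT for the CCAAT box and GGGRNNYYCC for NF-kappaB (N any base, R A or G, Y C or T). Only exact matches were counted, so near matches to the NF-kappaB pattern, such as tggaaattcc in the Icam1 window, were passed over. The Icam1 window held 1 GC box, on the opposite strand, a motif found in 32.7% of 32851 windows of this length. The upstream Alpl window held 2 overlapping GC boxes, and the downstream one TATAAA on the opposite strand, a motif in 12.4% of windows. No motif of the set was found in the Cd34 window. CpG dinucleotides numbered 15 for Icam1, 20 and 4 for the upstream and downstream Alpl windows and 6 for Cd34, where the median window had 6. The windows of Cd44 and Fut4, not printed here, held 5 and 16, so a high count was not limited to the rising genes. These are descriptions of letters, and binding was not measured.

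Cd44 encodes the main receptor for the matrix sugar hyaluronan. It was level over the first step and lower in iPS cells. Fibroblast arrays read 9.18, 9.11 and 9.25, arrays labelled TSKM-3D 9.17, 9.22 and 9.34, and iPS arrays 7.53, 7.39 and 7.10. The first pair of groups overlapped and the iPS arrays lay below both. The first-step difference was 0.07 with a 95% interval of -0.17 to 0.30, so a change of 2-fold lay outside it (limma adjusted p = 0.655). Against the arrays labelled TSKM-3D, iPS cells were 3.75-fold lower (log2 difference -1.91 ± 0.11, n = 3 per group; limma adjusted p = 3.57e-08). The chemokine gene Ccl2 had the course most like that of Cd44 (root mean square difference 0.07), followed by Dlg4 and Trmt2b (0.09 and 0.10).

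Hyaluronan genes did not all share the timing of Cd44. Of 23 measured genes for hyaluronan and Cd44 partners, 1 was higher and 3 lower on the arrays labelled TSKM-3D than in fibroblasts, with a median of -0.02. Has2, which encodes a hyaluronan synthase, was lower already there, at 7.30, 7.43 and 7.74 against 10.13, 10.06 and 9.94 in fibroblasts (-2.56 ± 0.13; limma adjusted p = 3.64e-08), and differed by 0.05 between iPS cells and the arrays labelled TSKM-3D. Ezr, which encodes ezrin, a linker between CD44 and actin, rose in both steps, by 1.06 and 1.18. Between iPS cells and the arrays labelled TSKM-3D, 2 of the 23 were higher and 5 lower, among them Vcan (-2.49), the hyaluronan-binding gene Tnfaip6 (-1.78), and Adam10 and Mmp14 (-1.68 and -1.46), whose proteases can cut CD44 from the cell surface.

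Vcam1 and Icam1 encode immunoglobulin-type adhesion receptors that cytokines induce in many cells, and here they parted. Vcam1 read 10.18, 10.13 and 10.13 on fibroblast arrays, 11.11, 11.07 and 11.20 on arrays labelled TSKM-3D and 6.18, 6.43 and 6.28 on iPS arrays. It was thus highest at the intermediate stage and lowest in iPS cells, with no overlap between groups. The first-step difference was 0.98 ± 0.08, or 1.97-fold, with an interval of 0.80 to 1.16 (limma adjusted p = 1.62e-06), just short of the 2-fold call. Without the second array labelled TSKM-3D it was 1.01, and after quantile normalization 1.11, both called. It was 0.94 without the third array labelled TSKM-3D and 0.93 with array medians set equal. With the third fibroblast array placed among those labelled TSKM-3D it was 0.72, and none of these was called. In iPS cells Vcam1 was 28.4-fold lower than on the arrays labelled TSKM-3D (-4.83 ± 0.08; limma adjusted p = 8.2e-12), the 8th largest fall among 19937 genes, with 1 of the 3 iPS readings under its array's median, so that the size of the fold is uncertain. Its nearest courses, those of Prkar2b, Lurap1l and Pi15, lay at root mean square differences of 0.16, 0.25 and 0.28.

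Icam1 had the opposite end point. It read 7.39, 7.18 and 7.38 on fibroblast arrays, 7.93, 7.97 and 7.97 on arrays labelled TSKM-3D and 9.16, 9.22 and 9.19 on iPS arrays. Every group lay above the one before. The first difference was 0.64 ± 0.08, or 1.56-fold (limma adjusted p = 3.31e-05), under the 2-fold that a call required. In that step 5 of the 9 genes, and 44.6% of all genes, had an adjusted p under 0.05. The second was 1.24 ± 0.08, or 2.35-fold (limma adjusted p = 9.58e-08), and over the whole course Icam1 rose 3.67-fold. When limma tested against 2-fold itself, the second-step rise was not called (adjusted p = 0.0599). Pfas, a purine synthesis gene, the splicing factor gene U2af1 and the histone demethylase gene Kdm5b had the most similar courses (root mean square differences 0.07 to 0.09). Icam1 on 2 arrays labelled TSKM-3D, and Vcam1 on 2 fibroblast arrays, had exactly equal values, so the spread of these groups may be understated.

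The partners of these receptors were measured on the same arrays. VCAM-1 is bound by the integrin of the alpha 4 and beta 1 chains. Itga4, the alpha 4 gene, read 9.23, 9.09 and 9.38 on arrays labelled TSKM-3D, against 6.49, 6.39 and 6.49 on fibroblast arrays, a 6.86-fold rise (2.78 ± 0.09; limma adjusted p = 1.72e-09). It was 12.9-fold lower in iPS cells, at 5.58, 5.64 and 5.41, than on the arrays labelled TSKM-3D, a size left uncertain by iPS readings under the array medians. Itgb1, the beta 1 gene, differed by 0.54 in the first step and fell by 1.43 in the second. Of the integrin chain genes for the leukocyte receptors of ICAM-1, Itgal, Itgam and Itgb2, 0 of 3 were called in any comparison, although Itgal reached an adjusted p of 6.93e-05 in limma for iPS against TSKM-3D (0.92).

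Genes of the NF-kappaB and cytokine response, which commonly move with Vcam1 and Icam1 in inflamed cells, were split. Of 22 measured, 3 were higher and 3 lower on the arrays labelled TSKM-3D than in fibroblasts, with a median of 0.00 against 0.05 over all genes. The higher ones were the feedback inhibitor genes Tnfaip3 (8.91 against 6.35) and Nfkbia (10.47 against 8.62) and the cytokine gene Lif (7.99 against 6.60). Among the 3 lower ones was Birc3 (6.89 against 8.26). Between iPS cells and the arrays labelled TSKM-3D, 1 was higher and 8 lower, with Tnfaip3 at 6.90 against 8.91, Cxcl5 at 6.74 against 9.67, and the acute-phase gene Saa3 higher at 9.30 against 5.53.

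**Figure D2:**
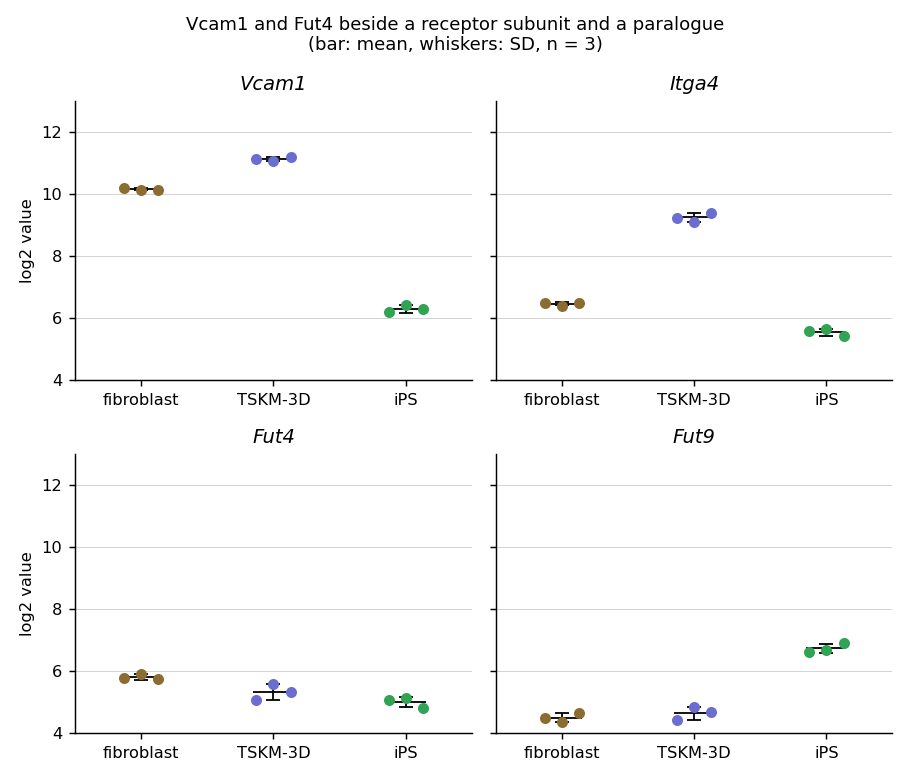
Log2 value on every array for Vcam1 and Itga4 (top) and Fut4 and Fut9 (bottom), with the 3 arrays as points, the mean as a bar and the SD as whiskers. Itga4 and Vcam1 both stand highest on the arrays labelled TSKM-3D, and Fut9 is higher on the 3 iPS arrays (6.62 to 6.90) than on the other 6 arrays while Fut4 is not.

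Pecam1 encodes an adhesion receptor of endothelium, platelets and leukocytes that is also present on mouse embryonic stem cells. It read 5.01, 4.96 and 5.16 on fibroblast arrays, 5.19, 5.66 and 5.21 on arrays labelled TSKM-3D and 8.88, 8.79 and 8.84 on iPS arrays. The values of the first and second group were under the median of their arrays, and the iPS arrays stood far above both. The first-step difference was 0.31 with an interval of 0.04 to 0.57 (limma adjusted p = 0.0567), and without the second array labelled TSKM-3D it was 0.16. The rise in iPS cells was 11.2-fold over the arrays labelled TSKM-3D (3.48 ± 0.12; limma adjusted p = 7.53e-10), of which the dim lower readings leave the size uncertain. The embryonic genes Ooep, Fgf4 and Nodal had the most similar courses (root mean square differences 0.12 to 0.16).

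The rise of Pecam1 was not accompanied by called rises of endothelial markers. Of 14 endothelial markers, 0 were called in each of the 3 comparisons by limma, and 3, 4 and 8 had an unadjusted p under 0.05 in the first step, the second step and the whole course, where the shares over all genes were 50.9%, 50.2% and 58.4%. The endothelial cadherin gene Cdh5 read 5.17 in iPS cells against 5.58 in fibroblasts, and the receptor gene Tek 6.90 against 6.01. The summed linear level of the list was 1158 to 1196 on iPS arrays, 886 to 1126 on arrays labelled TSKM-3D and 1067 to 1120 on fibroblast arrays.

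Alpl encodes tissue-nonspecific alkaline phosphatase, the enzyme behind the classical staining of pluripotent colonies. Its values were 6.84, 6.60 and 6.68 on fibroblast arrays, 6.77, 6.97 and 6.01 on arrays labelled TSKM-3D and 10.40, 10.63 and 10.58 on iPS arrays. The third array labelled TSKM-3D was the lowest of all 9, and the iPS arrays stood above the rest without overlap. The first-step difference was -0.12 with an interval of -0.56 to 0.31 (limma adjusted p = 0.646), and it turned to 0.16 without the third array labelled TSKM-3D and was -0.32 without the second, so no direction was settled. The second-step rise was 15.5-fold (3.96 ± 0.20; limma adjusted p = 1.3e-08), the 56th largest rise among all genes. Smtnl2, Spint1 and Trim6 had similar courses (root mean square differences 0.20 to 0.22). The single Alpl row does not separate transcripts from the pair of starts shown above.

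Other alkaline phosphatase genes were not called. Alpi, Akp3 and Alppl2 differed by -0.21, 0.26 and 0.09 between iPS cells and the arrays labelled TSKM-3D (limma adjusted p = 0.195, 0.166 and 0.465). Of 8 genes for phosphatases and phosphate handling, 2 were higher and 0 lower in that step: Slc20a1, a phosphate importer gene (11.72 against 10.28), and Nt5e, which encodes the CD73 ecto-nucleotidase (8.19 against 6.74). Ank, a pyrophosphate exporter gene, was lower in iPS cells than in fibroblasts (7.88 against 9.54).

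Cd24a encodes a short, heavily glycosylated, GPI-anchored protein. It was lower in iPS cells than in both other groups. Fibroblast arrays read 9.98, 9.97 and 10.17, arrays labelled TSKM-3D 10.35, 9.89 and 10.56, and iPS arrays 8.62, 8.61 and 8.91. The first pair of groups overlapped, with an SD of 0.34 on the arrays labelled TSKM-3D against 0.11 in fibroblasts. Their difference was 0.23 with an interval of -0.10 to 0.56 (limma adjusted p = 0.25). It was 0.42 without the second array labelled TSKM-3D (limma adjusted p = 0.0115) and 0.09 without the third (0.64). Against the arrays labelled TSKM-3D, iPS cells were 2.94-fold lower (-1.56 ± 0.15; limma adjusted p = 4.04e-06), and against fibroblasts 2.51-fold lower (-1.33 ± 0.15; limma adjusted p = 1.16e-05). The difference from fibroblasts was not called when limma tested against 2-fold itself (adjusted p = 0.169). Its nearest courses were those of Rab21, Memo1 and the p53 target gene Ccng1, at 0.12 to 0.13. The Siglec-10 homologue gene Siglecg, whose product binds CD24, read 6.26 in iPS cells and 7.83 in fibroblasts (-1.57 ± 0.10; limma adjusted p = 6.43e-08).

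Fut4 encodes an alpha-1,3-fucosyltransferase able to complete the SSEA-1 (Lewis x) epitope, also called CD15. Its row stayed under the array median on all 9 arrays, at 5.76, 5.90 and 5.74 in fibroblasts, 5.05, 5.56 and 5.31 on arrays labelled TSKM-3D and 5.05, 5.14 and 4.80 in iPS cells. The iPS values overlapped those of the arrays labelled TSKM-3D and lay below those of fibroblasts. Against fibroblasts, iPS cells differed by -0.81 ± 0.13, or 1.75-fold lower, with an interval of -1.09 to -0.52 (limma adjusted p = 0.000183), short of the 2-fold call, where 54.6% of all genes had an adjusted p under 0.05. The first-step difference was -0.49 (limma adjusted p = 0.00786). The second was -0.31 (limma adjusted p = 0.0704), where 45.6% of all genes were under 0.05.

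The paralogue Fut9, whose enzyme makes SSEA-1 in the mouse embryo, did rise. It read 6.62, 6.67 and 6.90 on iPS arrays, against 4.40, 4.82 and 4.67 on arrays labelled TSKM-3D, and 4.48, 4.35 and 4.65 on fibroblast arrays. The iPS arrays stood above the other 6 without overlap. The rise over the arrays labelled TSKM-3D was 4.28-fold (2.10 ± 0.12; limma adjusted p = 5.04e-08), of uncertain size, since the readings before iPS lay near the lower quartile of their arrays, which was 4.54 to 4.73. The first-step difference was 0.14 with an interval of -0.14 to 0.41. Of 17 measured fucosylation genes, 1 was higher (Fut9) and 1 lower (Gmds, for the first enzyme of GDP-fucose synthesis, at 6.49 against 8.08) in that second step. Over the whole course 1 was higher and 6 lower, including Pofut2 (-2.02), St3gal4 (-1.31) and Fut11 (-1.25).

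**Figure D3:**
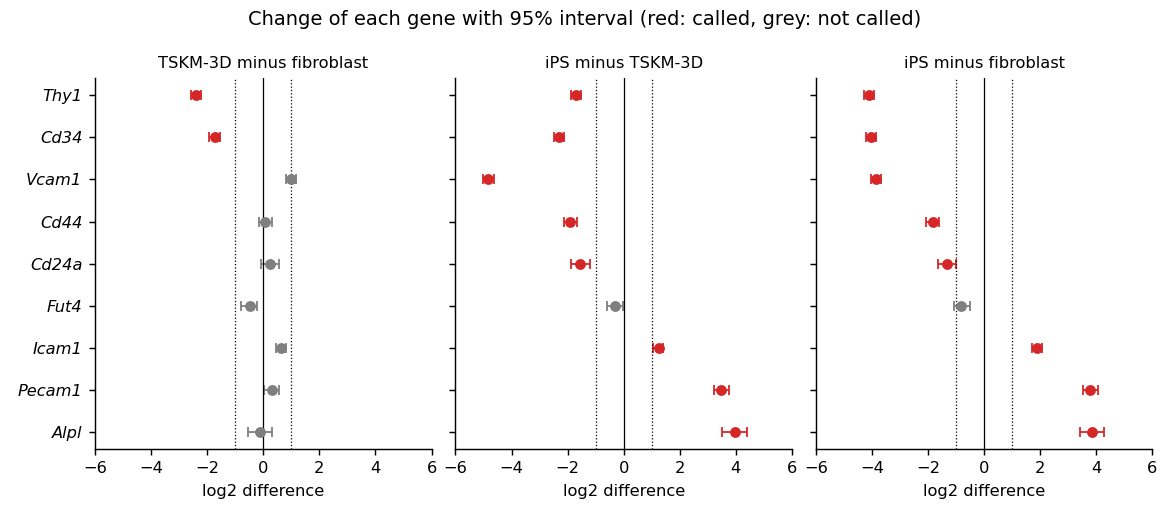
Log2 difference of each gene in the 3 comparisons, with 95% intervals from the limma fit, red where called, and dotted lines at 2-fold. In the first step Thy1 and Cd34 are called lower and Vcam1 lies at the 2-fold line (0.98), while in the second step only Fut4 lies inside both lines.

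Whether the 2 steps differed was tested in the same fit, as the second difference minus the first. Of the 9 genes, 5 were called, 2 with a higher and 3 with a lower second step, where 22.8% of all genes were called, 12.9% higher and 9.91% lower. Alpl and Pecam1 had step differences of 4.08 ± 0.34 and 3.17 ± 0.21. Those of Vcam1, Cd44 and Cd24a were -5.81 ± 0.14, -1.97 ± 0.19 and -1.79 ± 0.26 (limma adjusted p at most 0.000163 for all 5). The step difference is signed, so where the steps went opposite ways it takes in both moves. Vcam1 is such a gene, at 0.98 in the first step and -4.83 in the second. Thy1, Icam1 and Cd34 had step differences of 0.71, 0.60 and -0.57, which passed the adjusted p and not 2-fold (with the third fibroblast array moved as above, -0.51, 0.85 and -1.46), and Fut4 one of 0.18 (adjusted p = 0.559). Among each other, the closest courses were those of Pecam1 with Alpl, Cd44 with Cd24a, and Thy1 with Cd34 (root mean square differences 0.30, 0.32 and 0.33). The 2 steps share the arrays labelled TSKM-3D.

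**Figure D4:**
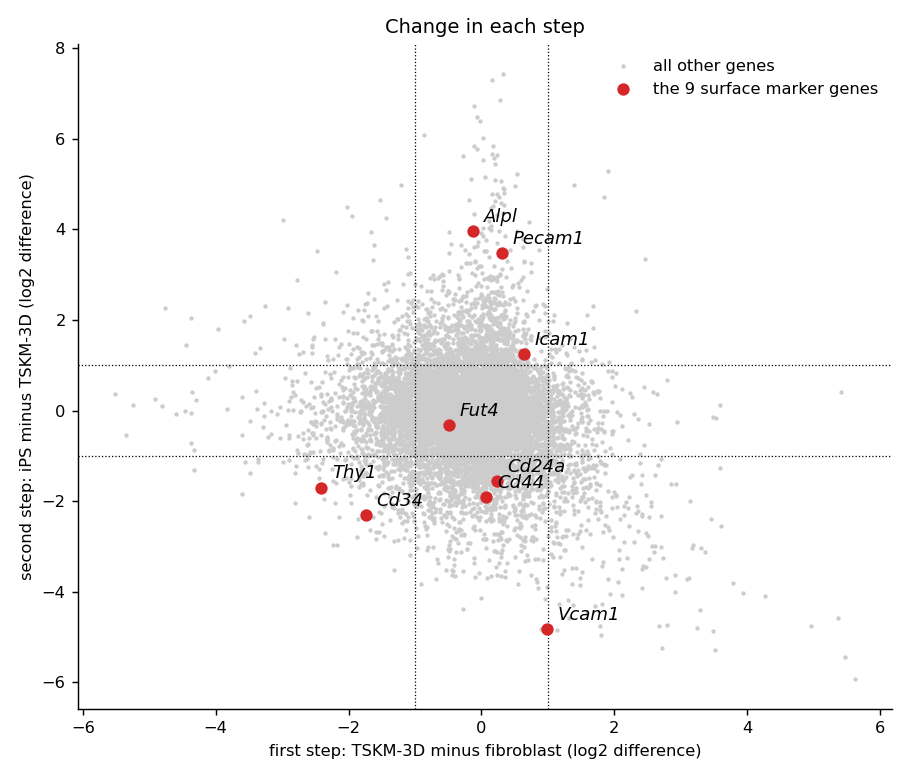
Second-step against first-step log2 difference for all genes (grey) and the 9 surface marker genes (red), with dotted lines at 2-fold. Thy1 and Cd34 lie low in both steps, Vcam1 at 0.98 and -4.83, and Alpl, Pecam1 and Icam1 within 2-fold in the first step and above it in the second.

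Other surface proteins of the starting and end cells give the setting of these courses. Of 17 fibroblast surface genes measured, 9 were lower and 1 higher on the arrays labelled TSKM-3D than in fibroblasts, with a median of -1.46 against 0.05 over all genes, led by the integrin gene Itga11 (-2.98), the aminopeptidase gene Anpep (-2.88) and the receptor gene Pdgfrb (-2.76). Over the whole course 12 were lower and 1 higher. The higher one was the peptidase gene Dpp4 in both comparisons (1.34 in the first step and 2.92 over the whole course). Of 16 pluripotent cell surface genes, 3 were higher and 1 lower in the first step, with Ceacam1 at 2.39 and Cd9 at 1.54. In the second step 9 were higher and 2 lower, with Tdgf1 at 7.43, Cdh1 at 4.89, Epcam at 4.54 and Kit at 3.96. The lower ones were Il6st in both steps (-1.39 and -1.51) and Ceacam1 in the second (-1.16). The groups did not overlap for 6, 8 and 9 of the 9 surface marker genes in the first step, the second step and the whole course, where the shares over all genes were 53.1%, 49.5% and 65%. For the genes lower in iPS cells, the fibroblast markers on the same arrays are relevant, since the labels name feeder cells for the iPS line. Their summed linear level was 14420 to 16150 on iPS arrays, 31180 to 32280 on arrays labelled TSKM-3D and 41041 to 41302 on fibroblast arrays, Dcn was higher in iPS cells than on the arrays labelled TSKM-3D (8.53 against 7.07), and none of the 9 was at 0. Their part in the remaining iPS levels of Thy1, Cd44 and Cd24a was not tested.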

How the data were processed

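The deposited table holds log2 values of 34760 array rows on 9 arrays; the method by which the authors summarised and normalized them is not given in the sources used here. Per the labels' protocols, Trizol-extracted total RNA was labelled with a whole-transcript terminal labelling kit. Gene names came from the probe table of the platform, in which 21640 rows carried 1 symbol, 1321 several (not used) and 11799 were unlisted. Where a gene had more than 1 row, the brightest on average stood for it, giving 19937 genes. The 3 groups were fitted together, without covariates, by limma 3.58.1 in R 4.3.3 (lmFit, contrasts.fit, eBayes), with Benjamini-Hochberg adjustment over all genes; standard errors and 95% intervals are those of this fit. The number of arrays limits the precision. On simulated data for TSKM-3D against fibroblasts, with 100 genes changed at each size, 100% of genes set at a log2 change of 1.5 were called and 0 others. That size lies above the 2-fold threshold and the simulated spread was that of these arrays, so recovery of changes near 2-fold was not tried. Same-numbered arrays did not deviate together (r = -0.098 to 0.062 across genes), so they were not paired. Genes are named by rule: the 9 genes, at most 4 called genes per list and comparison, the 3 nearest courses per gene (root mean square difference, without clone or predicted names) and the introduced factors. Itgal, Itgam, Itgb2, Alpi, Akp3, Alppl2, Cdh5, Tek, Col1a1, Fn1 and Dpp4 fall outside this rule and were chosen after their values were seen. The 9 genes and all lists were chosen with earlier results of these data known. Genes of the lists without a row of their own were not analysed here. Promoters came from RefSeq (GRCm38.p6).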

Additional observations from a re-analysis of the deposited data

How the results depend on the processing

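The 9 genes were recomputed with each array left out in turn, with the replicate number as a block, after quantile normalization, with array medians set equal, with genes averaging at least 6 (Fut4 was then not tested), with the mean of all rows of a symbol, with adjustment over all rows, with a variance trend, without a fold requirement, against 2-fold with treat, and with the third fibroblast array placed with TSKM-3D. Among values of single genes, 667 kept their side of the threshold, 9 gained a call and 4 lost one. With each array left out, 2 to 3 of the 9 genes were called in the first step, 8 in the second and 8 over the whole course, and all genes called numbered 2153 to 2222, 2948 to 3108 and 4265 to 4299. The replicate block gave 2, 8 and 8 called genes of the 9 and 2159, 3001 and 4283 of all genes, and changed no call of the 9. Without the fold requirement, 5 of the 9 were called in the first step and 8 in the test of step difference, with 8886, 9088 and 10883 of all genes called in the first step, the second step and the whole course and 42.7% of all genes in the step difference; against 2-fold, 1140 and 1931 of all genes were called in the first and second step. With the third fibroblast array placed with TSKM-3D, limma called 0 of the 9 and 0 of all genes in the first step, with 4 and 5359 at an unadjusted p under 0.05; Thy1 then differed by -1.80 and Cd34 by -1.29 (adjusted p = 0.165 for each), and the step difference of Thy1 turned to -0.51. Setting array medians equal moved the median gene to -0.13 in the second step and -0.12 over the whole course, against -0.01 and 0.05 as deposited, and the difference of Thy1 over the whole course was then -4.28 and that of Icam1 1.70. Signal over background was not measured, so folds against dim readings (Pecam1 and Fut9 before iPS, Cd34, Itga4 and Vcam1 in iPS cells, Fut4 throughout) are uncertain in size.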

Other observations

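Thy1, Cd24a and Alpl share a GPI anchor, and 20 other genes for GPI-anchored proteins were measured. On the arrays labelled TSKM-3D, 2 were higher and 5 lower than in fibroblasts, where 10.8% of all genes were called. Cd59a, which encodes a complement inhibitor, read 7.30 against 9.59, the GDNF co-receptor gene Gfra1 7.81 against 9.63, and the glypican gene Gpc4 was higher at 11.63 against 10.34. In iPS cells, 3 were higher and 8 lower than on the arrays labelled TSKM-3D, where 15.1% of all genes were called. Cd109 read 6.71 against 10.99 and the folate receptor gene Folr1 8.75 against 6.12. Of 27 genes for synthesis and transfer of the anchor, 2 were higher and 2 lower on the arrays labelled TSKM-3D than in fibroblasts, and 2 were higher and 4 lower in iPS cells than in fibroblasts. The shares of all genes called in these comparisons were 10.8% and 21.5%. Piga, which encodes the catalytic subunit of the first step of the pathway, was among the higher genes in both comparisons, at 8.24 against 6.92 and at 9.19 against 6.92. Pigu, for a subunit of the transamidase that attaches the anchor, was lower in both, at 8.18 against 9.93 and at 8.62 against 9.93.

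Immunoglobulin-type adhesion molecules other than those among the 9 genes moved in both directions. Of 25 measured, 2 were higher and 7 lower on the arrays labelled TSKM-3D than in fibroblasts, where 10.8% of all genes were called. Ncam1 read 8.51 against 10.93 and Alcam 7.55 against 9.11. In iPS cells, 5 were higher and 3 lower than on the arrays labelled TSKM-3D, where 15.1% of all genes were called. The junctional adhesion gene Jam2 read 10.99 against 6.33, the laminin receptor gene Bcam 9.73 against 6.48, and the tight-junction gene F11r 9.44 against 6.92, while Cd47 was lower at 8.17 against 9.89. Jam2 was itself lower on the arrays labelled TSKM-3D than in fibroblasts, at 6.33 against 7.86.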
